A study of Mus musculus with 4 samples.

Results

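The intermediate filament genes of brain cells are described here in the brains of Bcas1 knockout and wild-type mice. The 9 genes are 4 filaments of astrocytes (Gfap, Vim, Nes and Synm) and 5 filaments of neurons (Nefl, Nefm, Nefh, Ina and Prph). Every probe set that the array annotation assigned to one of these symbols was kept, which gave 22 of the 45037 probe sets tested, 11 astrocytic and 11 neuronal. None of the 22 named a second gene, and the rule used the gene symbols alone. The knockout group was 2 male Bcas1 -/- mice and the wild-type group 2 male Bcas1 +/+ mice, all 8 to 9 weeks old, on a C57BL/6 background and bred from heterozygous parents. The labels do not say how the Bcas1 allele was disrupted. Each mouse gave 1 Affymetrix array, and the sample descriptions name the cerebrum. Levels are RMA values on the log2 scale, so a difference of 1 is a 2-fold change, and all differences are knockout minus wild type.

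Intermediate filaments are rope-like polymers that, with actin and microtubules, form the cytoskeleton. Astrocytes build theirs mainly from GFAP with vimentin, to which nestin and synemin co-polymerise, and a rise in GFAP is the usual histological sign of astrocyte reactivity. Neurofilaments are polymers of the light, medium and heavy chains with alpha-internexin. They fill large axons and set their calibre, which in turn depends on myelin, the sheath made by the oligodendrocytes in which Bcas1 is expressed.

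Array medians lay at 6.49 in both knockout mice, and at 6.51 and 6.49 in the wild-type mice. The brightest Bcas1 probe set averaged 10.90 ± 0.21 in knockout and 12.19 ± 0.028 in wild type (SD, n = 2 each), a difference of -1.29 (adjusted p = 0.742 in limma). Its 2 dimmer probe sets differed the other way, by 0.765 and 0.640. Whether any of them reads the deleted or altered sequence was not determined here. The array of knockout mouse 2 stood apart in carrying nasal transcripts. The mean of 7 measured nasal mucosa markers was 4.73 and 7.15 in knockout mice 1 and 2, against 4.75 and 4.95 in the wild-type mice. Neuron markers averaged 11.87 and 11.85 in knockout and 11.87 and 11.90 in wild type over 10 genes, and astrocyte markers 11.52 and 11.47 in knockout and 11.47 and 11.50 in wild type over 14 genes, so markers of both cell classes were bright on all 4 arrays. In whole tissue, fewer cells of a type and less RNA per cell cannot be told apart.

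No filament probe set passed the test: 0 of 22 had an adjusted p under 0.05 in limma, where 2 of all 45037 probe sets (0.00444%) did, and the adjusted p of each of the 22 was 1. At an unadjusted p under 0.05 there was 1 filament probe set of 22, a Gfap probe set, against 3.42% of all probe sets. The differences of the 22 ran from -0.095 to 0.285 with a median of 0.0075, and the median over all probe sets was 0. Their standard errors ran from 0.071 to 0.164. An exact two-sided permutation test of 2 against 2 mice cannot give a p below 0.333. A miss does not show that a gene was unchanged, so the 95% interval of each difference from the moderated fit is given below. The plot of array values shows where each mouse lay.

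**Figure D1:**
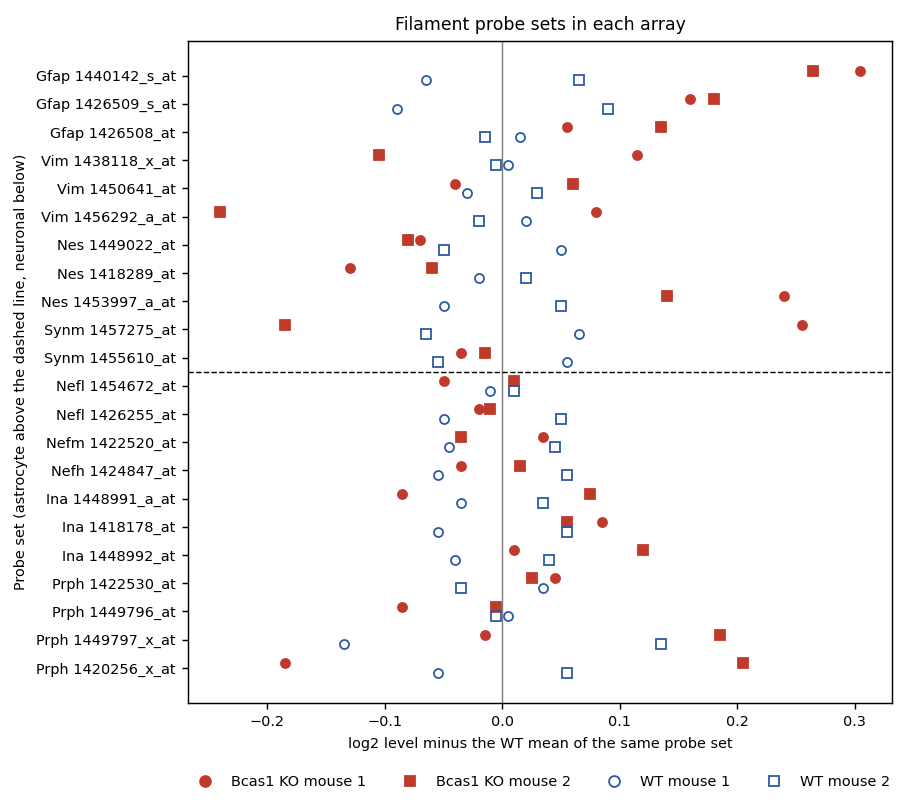
Level of each of the 22 filament probe sets in each array, as log2 level minus the wild-type mean of that probe set; filled red symbols are the 2 Bcas1 knockout mice, open blue symbols the 2 wild-type mice, and the dashed line parts astrocyte from neuronal filaments. The 3 Gfap probe sets have both knockout mice to the right of both wild-type mice, and no neuronal probe set separates the genotypes.

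Gfap, which encodes the main filament protein of mature astrocytes, was the member with the largest difference. Its brightest probe set, 1440142_s_at, measured 9.01 and 8.97 in the knockout mice and 8.64 and 8.77 in the wild-type mice. The difference was 0.285 (SE 0.081, 95% interval 0.072 to 0.498), a 1.22-fold higher level with an adjusted p = 1 in limma. Among all probe sets 3.05% differed by at least this much in either direction. Probe set 1426509_s_at measured 6.81 and 6.83 in knockout, against 6.56 and 6.74 in wild type. Probe set 1426508_at measured 6.70 and 6.78 in knockout, against 6.66 and 6.63 in wild type. Their differences were 0.170 (interval -0.066 to 0.406) and 0.095 (interval -0.098 to 0.288), and both intervals hold 0. The estimates for the gene thus depended on the probe set. The smallest came from 1426508_at, the only Gfap probe set with a plain _at name. Probe sets 1426509_s_at and 1426508_at sat at the 53.6 and 53.0 percentile of mean levels, against 78.9 for the brightest. No detection call shows whether these dimmer probe sets exceeded background.

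In all 3 Gfap probe sets both knockout mice lay above both wild-type mice. Of the 2366 genes with exactly 3 probe sets of their own, 15 (0.634%) had this arrangement for all 3, and 23 had the opposite one. The probe sets read the same RNA of the same mice and 1426508_at and 1426509_s_at were designed from 1 sequence record, so they are not 3 replicates. Leaving out any 1 mouse kept the brightest probe set between 0.220 and 0.350, and moved 1426509_s_at over 0.080 to 0.260 and 1426508_at over 0.055 to 0.135. The lowest values came without wild-type mouse 1 for 1426509_s_at and without knockout mouse 2 for 1426508_at. Without knockout mouse 2, the array with nasal transcripts, the difference was 0.305 for 1440142_s_at, 0.160 for 1426509_s_at and 0.055 for 1426508_at. The separation came with closely matched knockout mice, 0.04 apart for the brightest probe set, and with wild-type mice 0.13 apart.

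Vim encodes vimentin, which partners GFAP in astrocytes and is also made by endothelial, mural, ependymal and meningeal cells. Its brightest probe set, 1438118_x_at, measured 10.21 and 9.99 in knockout and 10.10 and 10.09 in wild type. Probe set 1450641_at measured 9.79 and 9.89 in knockout and 9.80 and 9.86 in wild type. Probe set 1456292_a_at measured 9.34 and 9.02 in knockout and 9.28 and 9.24 in wild type. The genotypes overlapped in all 3. The differences were 0.005 (interval -0.254 to 0.264), 0.010 (interval -0.194 to 0.214) and -0.080 (interval -0.407 to 0.247).

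The Vim probe sets did not order the knockout mice alike. Knockout mouse 2 was 0.22 and 0.32 below knockout mouse 1 in 1438118_x_at and 1456292_a_at, which come from 1 sequence record, and 0.10 above it in 1450641_at. The wild-type mice differed by 0.06 at most in the 3 probe sets. Vim therefore varied more between the knockout mice than between the genotypes. The gene lies on chromosome 2 in the RefSeq table of assembly GRCm38.p6, as does Bcas1.

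Nes encodes nestin, a filament of neural progenitors that in the adult brain is also found in vessel walls and reactive astrocytes. Probe set 1449022_at measured 7.55 and 7.54 in knockout and 7.67 and 7.57 in wild type. Probe set 1418289_at measured 7.21 and 7.28 in knockout and 7.32 and 7.36 in wild type. Both had the knockout mice below the wild-type mice, by -0.075 (interval -0.273 to 0.123) and -0.095 (interval -0.286 to 0.096). Leaving out 1 mouse moved 1449022_at over -0.125 to -0.025, with -0.025 without wild-type mouse 1. Probe set 1453997_a_at ran the other way, with 3.49 and 3.39 in knockout and 3.20 and 3.30 in wild type, a difference of 0.190 (interval -0.025 to 0.405). It is the dimmest of the 22, at the 5.61 percentile of mean levels on these arrays, and no detection call shows whether it exceeded background. The genotypes were separate in all 3 Nes probe sets, with knockout below in 2 and above in 1. Of all probe sets, 13.2% had both knockout mice below and 13.9% had both above. The 3 intervals all hold 0, so neither a difference nor a direction for Nes was settled. Markers of neural stem cells and proliferation, which nestin accompanies in progenitors, had a median difference of -0.005 over 7 measured genes, with 0 past the adjusted threshold. Of the 7, 0 were separate between genotypes. With 1 probe set per gene, 15.5% of all genes lay above and 12.8% below, and 7 genes are too few to tell 0 from these shares.

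Synm encodes synemin, a large filament protein that needs vimentin or another partner to polymerise. Probe set 1457275_at measured 9.52 and 9.08 in knockout and 9.33 and 9.20 in wild type. Both wild-type values lay between the knockout values, which were 0.44 apart, the widest gap of any filament probe set between mice of 1 genotype. The difference of 0.035 had an interval of -0.394 to 0.464 and turned to -0.185 without knockout mouse 1 and 0.255 without knockout mouse 2. Probe set 1455610_at measured 7.92 and 7.94 in knockout and 8.01 and 7.90 in wild type, with a difference of -0.025 (interval -0.227 to 0.177).

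**Figure D2:**
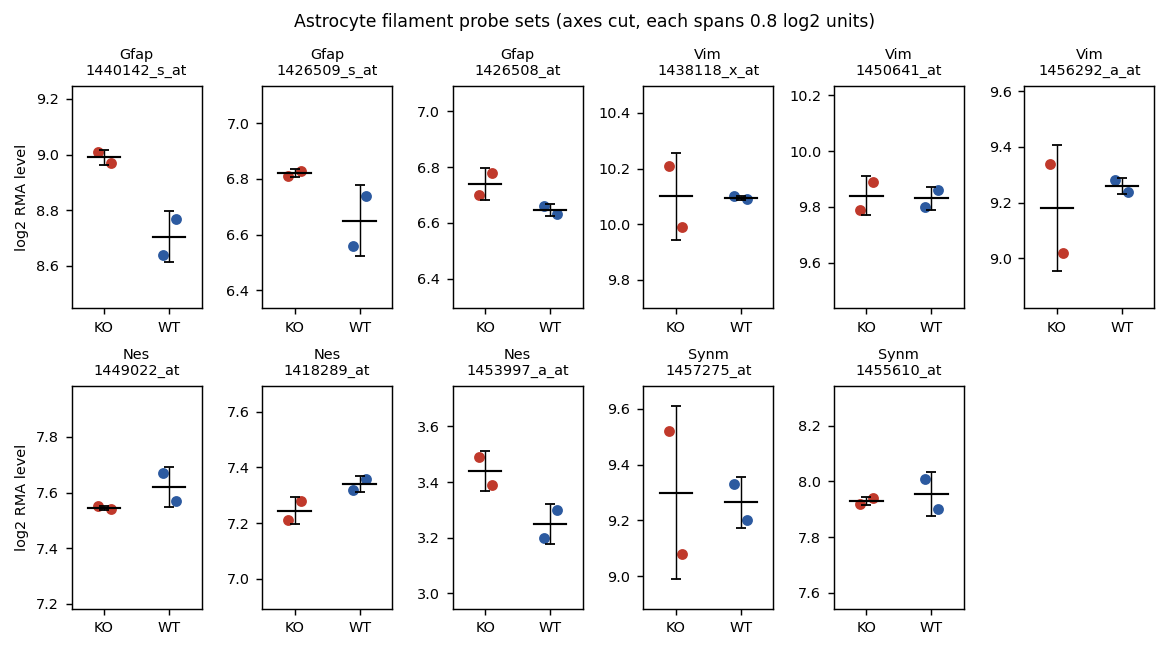
Log2 RMA level of the 11 astrocyte filament probe sets, with the Bcas1 knockout mice on the left and the wild-type mice on the right of each panel; points are mice (mouse 1 left of mouse 2), bars the mean and SD of 2 mice, and each vertical axis spans 0.8 log2 units around the mid-level. Gfap 1440142_s_at shows the largest difference, 0.285, and Synm 1457275_at the widest gap within a genotype, 0.44 in knockout.

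Nefl, Nefm and Nefh encode the light, medium and heavy neurofilament chains. Nefl is the core subunit, and the long tails of the other chains project from the filament and space it from its neighbours. Nefl 1454672_at measured 13.20 and 13.26 in knockout and 13.24 and 13.26 in wild type, and 1426255_at measured 12.80 and 12.81 in knockout and 12.77 and 12.87 in wild type. Their differences were -0.020 (interval -0.207 to 0.167) and -0.015 (interval -0.213 to 0.183). Nefm 1422520_at, the only probe set of its gene, measured 12.56 and 12.49 in knockout and 12.48 and 12.57 in wild type, with equal means of 12.525 and an interval of -0.203 to 0.203. Nefl and Nefm are adjacent genes on chromosome 14 in the RefSeq table.

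Nefh 1424847_at measured 11.34 and 11.39 in knockout and 11.32 and 11.43 in wild type. The knockout values lay inside the wild-type range, and the difference was -0.010 (interval -0.216 to 0.196). For the 4 probe sets of the 3 chains the intervals together reach from 0.861-fold to 1.15-fold. The bounds rest on the variance of limma, which draws the spread of 2 mice toward that of all probe sets.

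Ina encodes alpha-internexin, which joins the neurofilament chains in central axons. Its 3 probe sets measured 11.48 and 11.64 in knockout and 11.53 and 11.60 in wild type (1448991_a_at), 11.14 and 11.11 in knockout and 11.00 and 11.11 in wild type (1418178_at), and 10.61 and 10.72 in knockout and 10.56 and 10.64 in wild type (1448992_at). Every one overlapped or tied between genotypes. The differences were -0.005, 0.070 and 0.065, with interval bounds from -0.237 to 0.278. Leaving out 1 mouse moved 1418178_at over 0.015 to 0.125 and 1448992_at over 0.010 to 0.120, lowest without wild-type mouse 1 for the first and without knockout mouse 2 for the second.

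Prph encodes peripherin, a filament of peripheral, brainstem and spinal motor neurons that most cerebral neurons lack. Its 4 probe sets sat around the middle of the array's range, at the 38.4 to 54.5 percentile of mean levels. Probe set 1422530_at measured 6.83 and 6.81 in knockout and 6.82 and 6.75 in wild type, and 1449796_at measured 6.34 and 6.42 in knockout and 6.43 and 6.42 in wild type. The 2 Prph probe sets whose suffix, _x_at, marks possible cross-hybridisation were more variable. Vim 1438118_x_at carries the same suffix. Probe set 1449797_x_at measured 6.34 and 6.54 in knockout and 6.22 and 6.49 in wild type, and 1420256_x_at measured 5.56 and 5.95 in knockout and 5.69 and 5.80 in wild type. In both, mouse 2 was above mouse 1 in each genotype. The 4 differences ran from -0.045 to 0.085. The markers of motor and hindbrain neurons had mean levels of 5.76 and 5.76 in knockout and 5.72 and 5.92 in wild type over 9 measured genes. No detection calls were available to say whether the Prph signal exceeded background.

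**Figure D3:**
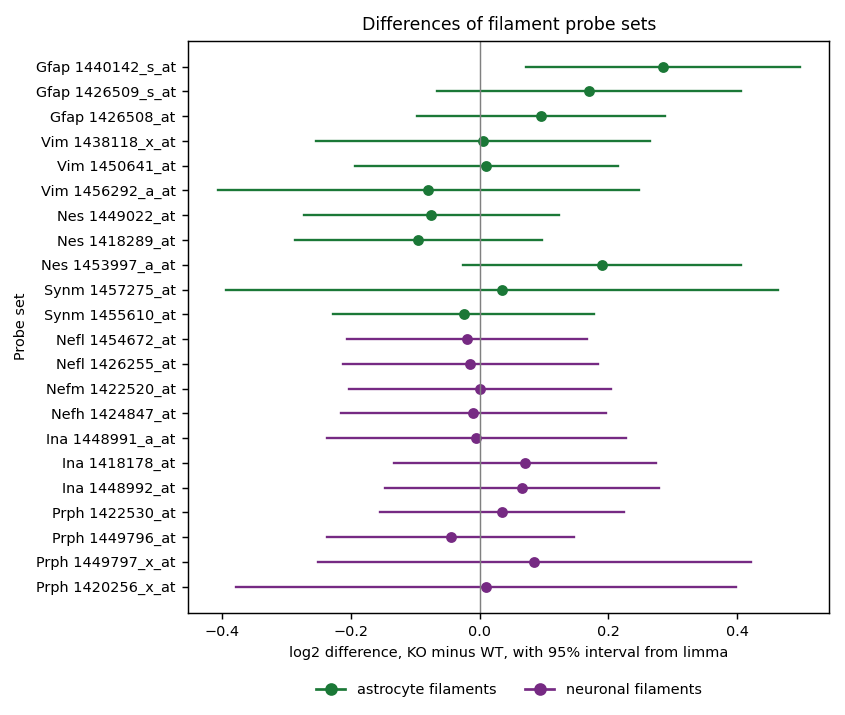
Log2 difference of each filament probe set, knockout minus wild type, with its 95% interval from limma (2 mice per group); green marks astrocyte filaments and purple neuronal filaments. The interval excludes 0 for 1 of 22 probe sets, Gfap 1440142_s_at, before any adjustment for multiple tests.

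Set side by side, the astrocyte filaments had a median difference of 0.010 and the neuronal filaments one of 0, so the classes were 0.010 apart. Of the astrocyte probe sets 7 had positive and 4 negative differences, from -0.095 to 0.285. Of the neuronal probe sets 5 were positive, 5 negative and 1 equal, from -0.045 to 0.085. The median size of the difference, sign aside, was 0.080 for astrocyte, 0.020 for neuronal and 0.065 for all probe sets. Over all probe sets above the median level it was 0.050. The classes differ in level, and these sizes were not matched for it. Both knockout mice lay above both wild-type mice in 4 of 11 astrocyte and 0 of 11 neuronal probe sets, where 13.9% of all probe sets did. Both lay below in 2 of 11 and 0 of 11, where 13.2% of all probe sets did. Of the 4 astrocyte probe sets above, 3 were Gfap. The 8 others without Gfap had a median difference of -0.010, with 4 positive and 4 negative.

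By mouse, the contrast of the classes did not follow genotype. The median deviation from the wild-type mean over the astrocyte probe sets was 0.080 and -0.015 in knockout mice 1 and 2, and 0.005 and -0.005 in the wild-type mice. Over the neuronal probe sets it was -0.020 and 0.025 in knockout, and -0.045 and 0.045 in wild type. Astrocyte minus neuronal was thus 0.10 and -0.040 in knockout, and 0.050 and -0.050 in wild type. The knockout mice lay outside the wild-type pair on one side and inside it on the other, so the contrast did not exceed the spread between mice. Without knockout mouse 2 it was 0.10 and without knockout mouse 1 it was -0.040.

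Other astrocyte genes were spread around 0. The lists that follow use 1 probe set per gene, and of all genes so represented 15.5% had both knockout mice above both wild-type mice and 12.8% had both below. Of 14 astrocyte markers, 6 had positive and 8 negative differences, the median was -0.010, and 1 was separate between genotypes, Sox9, an astrocyte transcription factor, at 0.175 (7.98 and 7.91 in knockout, 7.82 and 7.72 in wild type). Of 14 markers of reactive astrocytes, 8 were positive and 6 negative with a median of 0.0375, and 3 were above and 3 below with no overlap. Cxcl10, a chemokine, was at 0.185 and Steap4, a metalloreductase, at 0.105, while Cd44, a hyaluronan receptor, was at -0.135 and Timp1, a protease inhibitor, at -0.125. In each list 0 passed the adjusted test in limma and 0 had an unadjusted p under 0.05, where 3.42% of all probe sets did. No test of Gfap against these lists was made.

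Markers of mural cells, which wrap vessels, and of meninges had higher values in knockout, as Gfap had. All 10 mural markers had positive differences, from 0.005 to 0.335 with a median of 0.160, and 6 were separate between genotypes. Their mean level was 8.12 and 8.15 in knockout, against 7.96 and 8.00 in wild type. All 8 meningeal markers were positive with a median of 0.320, and 6 were separate, with a mean level of 8.57 and 8.76 in knockout, against 8.36 and 8.42 in wild type. In each list 4 genes had an unadjusted p under 0.05 in limma, where 3.42% of all probe sets did, and 0 passed the adjusted test. The 6 of 10 and 6 of 8 separate genes compare with 15.5% of all genes. The mural markers were uneven. Myh11 was at 0.335, Tagln and Acta2 of smooth muscle at 0.320 and 0.235, and Pdgfrb at 0.280. Rgs5, Cspg4 and Higd1b, chosen after their values were seen, were at 0.015, 0.005 and 0.015 and overlapped between genotypes. Among meningeal markers, Igf2 was at 0.340 and Fmod, a matrix proteoglycan, at 0.405. In knockout mouse 1, the array without nasal transcripts, the median deviation from the wild-type mean was 0.145 for mural and 0.190 for meningeal markers. Vim and Nes, which these cells also make, differed by -0.095 to 0.010 in their 5 brighter probe sets. In their dimmest, Nes 1453997_a_at, the difference was 0.190. The part of mural and meningeal cells in the difference of Gfap or of any other filament gene was not tested. Endothelial markers had a median of 0.025 over 9 genes, ependymal markers 0.030 over 8, choroid plexus markers 0.0875 over 6 (median deviation 0.0125 and 0.1875 in knockout, against -0.010 and 0.010 in wild type), oligodendrocyte markers 0.060 over 7, neuron markers -0.0075 over 10, microglial markers -0.025 over 6 and pituitary markers 0.0875 over 6, with 0 past the adjusted threshold in each. An unadjusted p under 0.05 was reached by 1 choroid plexus and 1 pituitary marker, and by 0 markers of the 5 other cell types. Of all probe sets 3.42% reached it, so a count of 0 in lists this short says little. Of the 10 neuron markers, 0 lay above and 3 below with no overlap, where 15.5% and 12.8% of all genes did. The 3 below were Uchl1 at -0.130, Slc17a7 at -0.090 and Eno2 at -0.080.

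**Figure D4:**
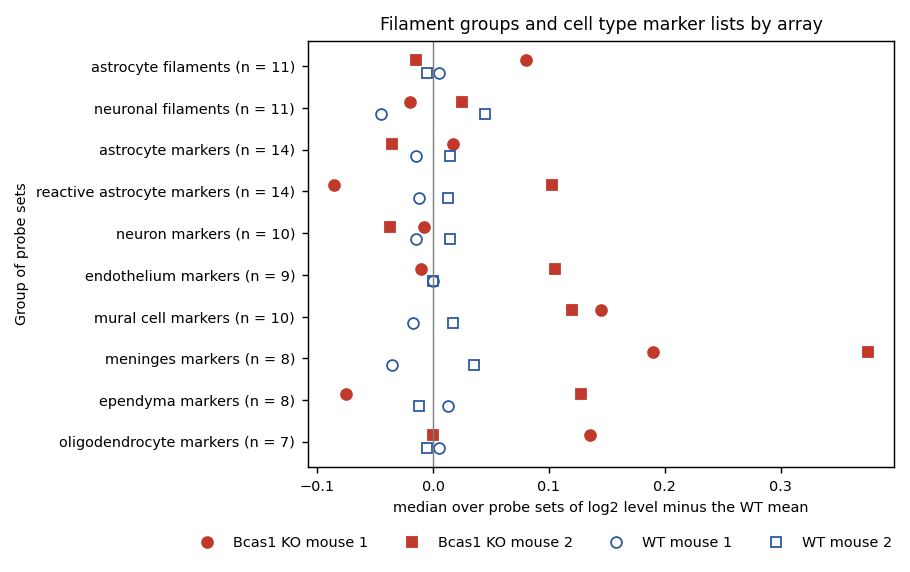
Median log2 deviation from the wild-type mean over the filament groups (all probe sets) and over marker lists (1 probe set per gene), by mouse; filled red symbols are knockout and open blue symbols wild-type mice. Both knockout mice lie to the right of the wild-type mice for mural cell and meninges markers, and for none of the other plotted groups; the astrocyte filaments have knockout mouse 1 at 0.080 and knockout mouse 2 at -0.015.

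Other genes of the filament family and its partners gave 0 calls in limma, adjusted or at an unadjusted p under 0.05. Of all probe sets 3.42% had an unadjusted p under 0.05, a share that short lists can miss. Of 16 other intermediate filament genes (nuclear lamins, desmin, syncoilin, keratins and lens filaments) 12 were positive and 4 negative, with a median of 0.0675, 6 above and 1 below with no overlap (15.5% and 12.8% of all genes) and 0 past the adjusted test. Des, the filament of muscle cells, measured 6.65 and 6.69 in knockout and 6.49 and 6.53 in wild type, a difference of 0.160 (SE 0.071). Krt19 and Krt5, epithelial keratins, differed by 0.215 and 0.10, and Bfsp2, a lens filament, by -0.180. Krt8 and Krt18, the paired keratins of simple epithelia, were chosen after their values were seen. Krt8 measured 5.99 and 6.66 in knockout, against 6.03 and 6.31 in wild type, and Krt18 measured 6.14 and 6.82 in knockout, against 6.21 and 6.47 in wild type. In both genes mouse 2 was above mouse 1 in each genotype, and knockout mouse 2, the array with nasal transcripts, was the highest.

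Among 13 measured linkers, chaperones and turnover genes of filaments, 9 were positive and 4 negative, with a median of 0.020, 2 above and 1 below with no overlap, near or under the 15.5% and 12.8% of all genes, and 0 past the test. Plec encodes plectin, which ties filaments to other structures, and measured 9.95 and 9.94 in knockout and 9.84 and 9.79 in wild type, a difference of 0.130 (SE 0.070). Kif5a and Kif5c, kinesin motors of axonal transport, differed by 0.120 and -0.065. The chaperone Cryab, which binds GFAP filaments, measured 11.52 and 11.42 in knockout and 11.38 and 11.45 in wild type, and was chosen after its values were seen. Of 12 axonal microtubule genes 5 were positive and 7 negative, with a median of -0.0125, 2 above and 4 below with no overlap (15.5% and 12.8% of all genes) and 0 past the test. Map1a, a microtubule-associated protein, was at 0.140, and Tubb3 and Tubb2a, tubulins, and Map2 were at -0.150, -0.095 and -0.075.

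The genes whose values over the 4 arrays were most like those of the brightest Gfap probe set were Myrf, Abcc9, Baiap3, Mfsd8 and Fbxo32. The likeness was the Euclidean distance between profiles after each was centred on its own mean, among 11629 genes above the median level, and the 5 distances ran from 0.050 to 0.067. Myrf, the transcription factor of myelin genes, was nearest, with 9.63 and 9.66 in knockout and 9.30 and 9.43 in wild type. Abcc9, a potassium channel subunit of pericytes and also one of the mural markers above, measured 7.75 and 7.71 in knockout and 7.42 and 7.58 in wild type. For Nefh the nearest were Gnpda2, Mul1, Psmg3, Wwox and Bsg, at distances of 0.0087 to 0.010. As many as 3329 genes lay within a distance of 0.1 of Nefh, against 22 for Gfap. The profile of Nefh itself lay only 0.086 from a flat line, and that of Gfap 0.301. These distances rest on 4 arrays and carry no p. Genes picked for their likeness to Gfap were bound to resemble its difference between genotypes, so their values add no further result.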

How the data were processed

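RNA of 4 mouse brains, 2 Bcas1 knockout and 2 wild type, was measured on 1-colour Affymetrix arrays, 1 array per mouse, from 100 ng total RNA with a 3' in vitro transcription kit, per the labels' protocols. The authors deposited 1 log2 level per probe set and array, made by RMA, which the submitters' processing notes name without software or settings, and given to 2 decimals. Scanner files and detection calls were not used here. Precision is limited by the number of arrays.

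Of 45101 rows, 64 Affymetrix controls were left out. The platform annotation gave 1 gene to 34945 of the probe sets, several to 932 and none here to 9160. All 9 members were found in the RefSeq table (GRCm38.p6) by Entrez number. That table served for chromosomes and neighbours only, as the values carry no genome build. The genotypes were compared by limma 3.58.1 under R 4.3.3, with lmFit and eBayes, two-sided, Benjamini-Hochberg over all 45037 probe sets, threshold 0.05, with 2 residual and 2.74 prior degrees of freedom. The script was tested on simulated data with planted differences larger than that of any filament probe set. That test does not bear on whether differences as small as theirs could be found. Intervals are 95% and unadjusted. Numbers of the 2 mice were not used as pairs. The p-values set each difference against the spread between 2 mice per group, after limma drew that spread toward the spread of all probe sets.

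For the other lists each gene was represented by its brightest probe set. The members, lists, tests and alternatives were chosen with earlier results of these data known. Named genes were all members, up to 4 genes of each other list with the largest differences among those not overlapping, and the 5 nearest profiles of Gfap and Nefh; not all of these are printed. Genes outside this rule are marked. Alternatives were 2 rescalings, a filter at the median level, another variance model, a replicate block, each array left out and other handling of a gene's probe sets. No gene set test was made, and probe sequences and protein sequences were not used here.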

Additional observations from a re-analysis of the deposited data

How the results depend on the processing

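Under every alternative run, 0 filament probe sets passed the adjusted threshold, with adjusted p of 0.573 to 1 over the 22 probe sets in limma; the filter on dim probe sets kept 18 of the 22. The number of all probe sets past the threshold was 2, and became 1 with dim probe sets left out, 10 with an intensity trend and robust variance, 0 with a replicate block and 0 without any 1 array; the cause was not tested. Same-numbered arrays deviated together with a correlation of 0.241 across probe sets, but the labels give the numbers no meaning, and the replicate block changed no filament call. The astrocyte median ranged from -0.015 to 0.080 when 1 array was left out, the neuronal median from -0.040 to 0.045, and their difference from -0.045 to 0.10; without knockout mouse 2 the first was 0.080 and the last 0.10. Other handling of a gene's probe sets, including plain-named ones only, which was chosen after seeing the data, kept all 3 within the spread between mice. Median centring turned Ina 1448991_a_at to 0.005. Leaving out 1 array changed the sign of 11 of 22 probe sets, over these ranges: Vim -0.105 to 0.115 (1438118_x_at), -0.040 to 0.060 (1450641_at) and -0.240 to 0.080 (1456292_a_at); Synm -0.185 to 0.255 (1457275_at) and -0.080 to 0.030 (1455610_at); Nefl -0.050 to 0.010 (1454672_at) and -0.065 to 0.035 (1426255_at). The ranges were -0.065 to 0.045 for Nefh 1424847_at, -0.085 to 0.075 for Ina 1448991_a_at, -0.050 to 0.220 for Prph 1449797_x_at and -0.185 to 0.205 for Prph 1420256_x_at. Nefm 1422520_at, with equal means in the main fit, had no sign to change and is outside this count. It ranged from -0.045 to 0.045. The 3 Gfap probe sets stayed positive, at 0.055 to 0.350.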
